A study of Mus musculus with 6 samples.

Results

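Expression was examined for genes that make, break down and respond to the second messenger cyclic AMP in mouse hippocampal neurospheres grown with norepinephrine or with KCl. The list was chosen by function and has 38 genes in 6 classes: 9 adenylyl cyclases, 8 phosphodiesterases selective for cyclic AMP, 8 of dual specificity and 2 selective for cyclic GMP, 6 subunits of protein kinase A, and 5 CREB factors and coactivators. Among the probe sets that carry only its symbol, each gene was represented by the one of highest mean value. This gave 37 genes of the 19937 named in the table. Prkaca, a catalytic subunit of protein kinase A, was not analysed here because its probe set also carries the symbol of another gene. Pde4d had 3 probe sets, and each of the other 36 genes had 1.

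Neurospheres are floating colonies that neural precursors form in culture. Those in both groups were primary neurospheres from hippocampal cells of male C57BL/6J mice aged 8 to 12 weeks, kept in medium with EGF and bFGF and collected on day 14, and the titles call all 6 samples big neurospheres without giving a size limit. The norepinephrine group had 10 µM norepinephrine, a monoamine transmitter, added to this medium, and the KCl group had 15 mM potassium chloride, which depolarises neurons. Each treatment had 3 samples with 1 array each. No untreated group was analysed here, so a difference does not say which treatment moved a gene, and growth factors and culture time were common to all samples. The labels call the samples biological replicates without naming the animals or cultures, so the p-values reflect only how far these samples vary, which may be technical.

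Cyclic AMP is made from ATP by adenylyl cyclases, which stimulatory G proteins switch on when receptors such as the beta-adrenergic receptors bind norepinephrine. Phosphodiesterases hydrolyse it again, and their families differ in whether they take cyclic AMP, cyclic GMP or both. Cyclic AMP frees the catalytic subunits of protein kinase A from their regulatory subunits, and the kinase phosphorylates CREB, a transcription factor that also answers to calcium entering depolarised cells. In the adult hippocampus CREB phosphorylation is known as a step in the maturation of newborn neurons.

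All values below are deposited log2 expression values, and a difference of 1 is a 2-fold difference. The arrays' standard deviations over all named probe sets were 1.67 to 1.76 with norepinephrine. They were 1.38, 1.78 and 1.62 on KCl replicates 1, 2 and 3. On KCl replicate 1, the narrowest, dim genes read high and bright genes read low. The median difference, norepinephrine minus KCl, over named probe sets at or above the median level was 0.062, and it was -0.16 below that level. Without KCl replicate 1 these medians were 0.0059 and 0.010, so differences without that array are also given. The number of arrays limits the precision, and no detection call was available. Of 8 stem cell and radial glia markers, 4 were higher and 4 lower with norepinephrine and 0 had an unadjusted p under 0.05, and Nes did without KCl replicate 1, at -0.58. Fabp7 averaged 12.90 ± 0.13 with norepinephrine and 13.05 ± 0.09 with KCl (SD, n = 3 each), and Sox2 10.36 ± 0.15 and 10.00 ± 0.50. Of 7 astrocyte markers 6 were higher with norepinephrine, 5 at an unadjusted p under 0.05. Without KCl replicate 1, 6 were higher and 4 were past that p, and their median difference of 0.73 was 0.41. Of all named probe sets 3.43% were past it on 6 arrays and 4.63% without KCl replicate 1. The mean of the 7 markers was 9.07, 9.28 and 9.09 on the norepinephrine arrays against 8.02, 8.55 and 8.44 on the KCl arrays. Of 5 oligodendrocyte precursor markers 4 were higher, with Pdgfra at 0.66 and Gpr17 at 0.70 at an unadjusted p under 0.05. Mature neuron markers split, 3 of 5 higher and 2 lower with norepinephrine, and only Snap25, at 1.03, was past the same threshold. Neuroblast markers also split, 3 of 5 higher and 2 lower, with Tubb3 at 0.47 and Cd24a at -0.45 past it. Without KCl replicate 1, Pdgfra was at 0.57, Gpr17 at 0.89, Snap25 at 0.90, Tubb3 at 0.44 and Cd24a at -0.57. The part of these in the differences below was not tested. In bulk samples fewer cells of a type and less RNA per cell cannot be told apart.

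None of the 37 genes passed the test. Limma's p-values were adjusted over all 21640 named probe sets by the Benjamini-Hochberg method, and 0 of these (0%) reached the threshold of 0.05, the smallest value being 0.661. At an unadjusted p under 0.05 stood 3 of the 37 genes: Pde2a and Prkacb, higher with norepinephrine, and Pde8a, lower with norepinephrine. The same threshold took 743 named probe sets, or 3.43% (2.2% higher and 1.24% lower with norepinephrine), a share that would give 1.27 of 37 genes. The groups did not overlap in 5 of the 37, the same 3 genes with Pde1c and Adcy2. Over all named probe sets they did not overlap in 9.13%, a share that would give 3.38 genes. Without KCl replicate 1, Pde2a and Prkacb were the genes at an unadjusted p under 0.05, beside 4.63% of all named probe sets. Across the list 18 genes were higher and 19 lower with norepinephrine, with a median difference of -0.013, and 62.0% of all named probe sets were lower, with a median of -0.075. Without KCl replicate 1 the counts were 20 and 17 and the median 0.0017.

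**Figure D1:**
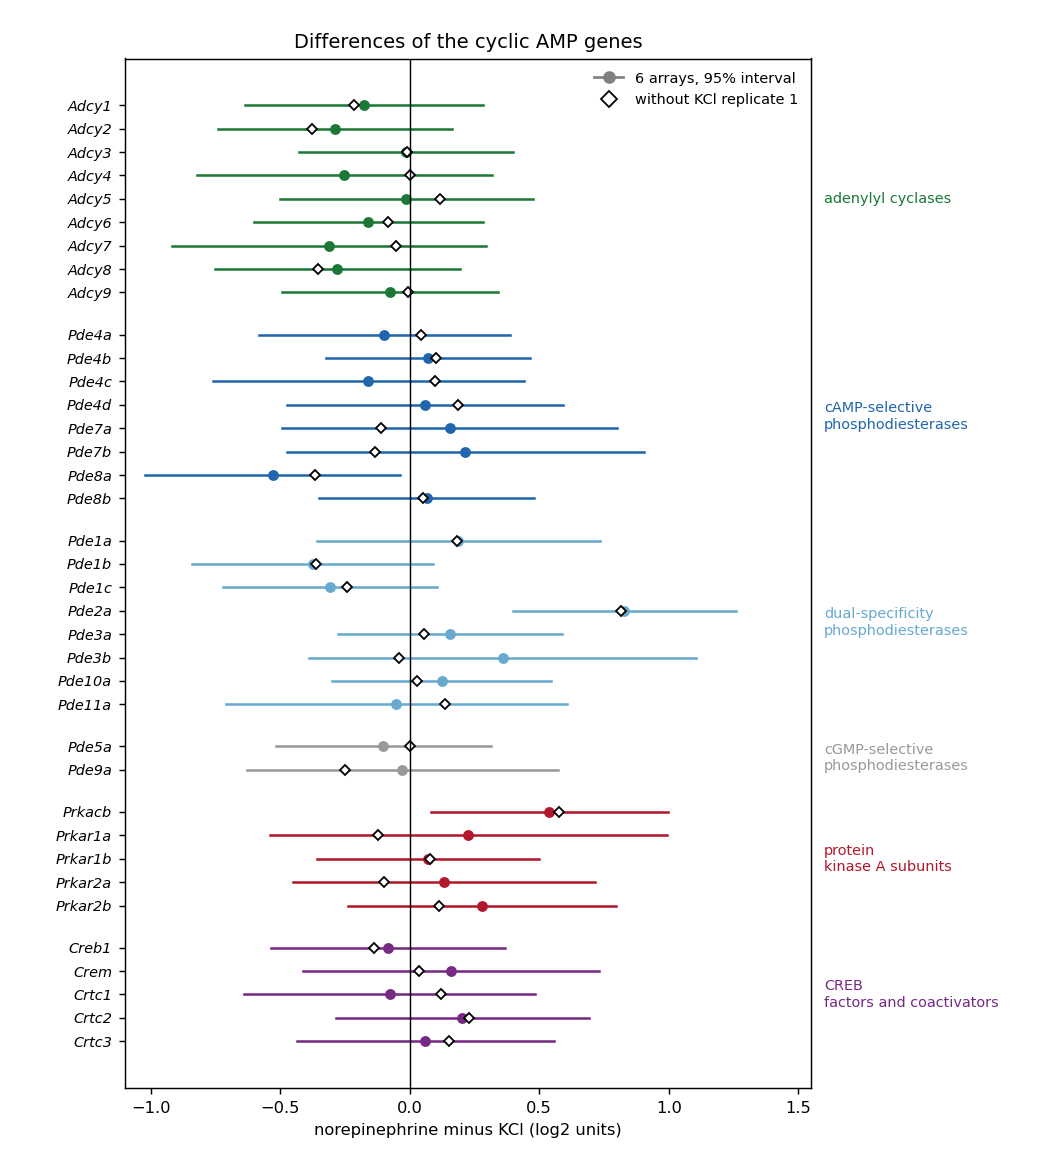
Difference of each gene, norepinephrine minus KCl in log2 units, with filled points and 95% intervals from limma on 6 arrays and open diamonds without KCl replicate 1. The intervals of Pde2a, Prkacb and Pde8a do not cross 0, and Pde2a and Prkacb have diamonds close to their points while several other genes, such as Pde3b and Pde7b, do not.

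Pde2a carried the largest difference of the list. It encodes a phosphodiesterase that hydrolyses cyclic AMP and cyclic GMP and is stimulated by cyclic GMP bound to its regulatory domain, and it is abundant in the forebrain. Its values were 8.19, 8.45 and 8.36 on the norepinephrine arrays, against 7.48, 7.69 and 7.35 on the KCl arrays. The lowest norepinephrine array was thus above the highest KCl array, and no single array made the difference. Pde2a averaged 8.34 ± 0.14 with norepinephrine and 7.51 ± 0.17 with KCl (SD, n = 3 each), a difference of 0.83 ± 0.19 (SE) or 1.78-fold, with a 95% interval of 0.40 to 1.26. The limma p was 0.00196 before adjustment and 0.939 after it. The difference was 0.82 without KCl replicate 1, and 0.75 to 0.92 when each array was left out in turn. Weights per array came from limma's gene-by-gene estimate, added after the data were seen. They gave KCl replicates 1, 2 and 3 weights of 0.158, 0.288 and 6.76. The KCl side thus rested almost wholly on replicate 3, the lowest array for both Pde2a and Prkacb. With these weights the adjusted p by limma was 0.000928 for Pde2a and 0.0139 for Prkacb. They were among 1454 named probe sets, or 6.72%, that then passed, so this fit says little about replicates of KCl.

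Prkacb, the beta catalytic subunit of protein kinase A and the one catalytic subunit analysed, had the next largest difference toward norepinephrine. It read 10.64, 10.90 and 10.44 with norepinephrine, against 10.19, 10.22 and 9.95 with KCl. The groups did not overlap, and the gap between the lowest norepinephrine and the highest KCl array was smaller than for Pde2a. The difference was 0.54 ± 0.20 (SE), or 1.45-fold, with a 95% interval of 0.083 to 0.996. The limma p was 0.0257 before adjustment and 0.939 after it. It was 0.57 without KCl replicate 1. The unadjusted p was above 0.05 when norepinephrine replicate 1, norepinephrine replicate 2 or KCl replicate 3 was left out, with differences of 0.55, 0.42 and 0.45.

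Pde8a, a high-affinity phosphodiesterase selective for cyclic AMP, differed the other way. It read 6.22, 6.60 and 6.35 with norepinephrine, against 7.25, 6.76 and 6.74 with KCl. KCl replicate 1 was the highest array, and the other KCl arrays lay just above norepinephrine replicate 2. The difference was -0.53 ± 0.22 (SE), with a 95% interval of -1.02 to -0.037. The limma p was 0.0379 before adjustment and 0.939 after it. The difference was -0.36 without KCl replicate 1, and -0.45 and -0.51 without norepinephrine replicates 1 and 3. In these 3 settings the unadjusted p was above 0.05.

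**Figure D2:**
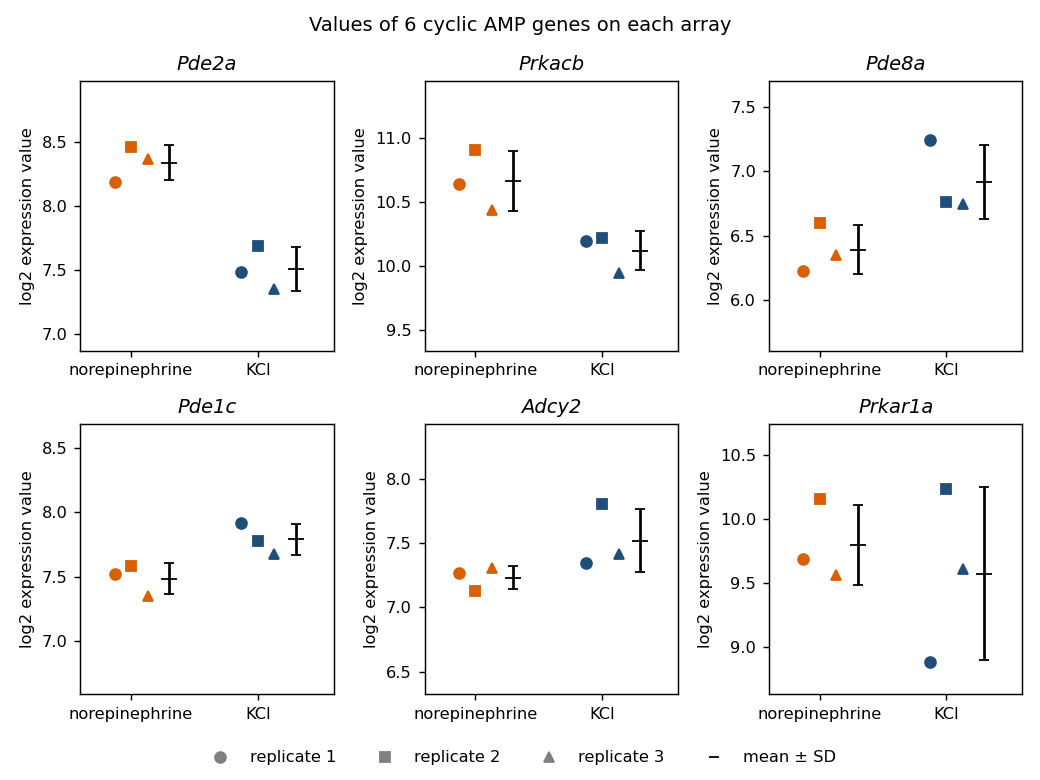
Log2 expression value of 6 genes on each array, norepinephrine on the left and KCl on the right of each panel, with symbols for the replicate number and black bars for mean ± SD (n = 3); every panel spans the same range. Groups do not overlap for Pde2a, Prkacb, Pde8a, Pde1c and Adcy2, whereas for Prkar1a the KCl arrays spread from 8.88 to 10.23 around all norepinephrine arrays.

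Promoters of the 3 genes at an unadjusted p under 0.05 are shown with that of Prkar1a because CREB is known to bind the cyclic AMP response element, a palindrome whose core lies in many promoters. RefSeq windows of build GRCm38.p6, from 250 bases before to 50 after a transcript start, matched 29 of the 37 genes by symbol, 65 windows in all. Both strands were searched for the palindrome TGACGTCA and for its core TGACG, which occurs inside the palindrome on both strands. Capitals mark the core on either strand.
Pde2a (chr7:101450270-101450569, plus strand): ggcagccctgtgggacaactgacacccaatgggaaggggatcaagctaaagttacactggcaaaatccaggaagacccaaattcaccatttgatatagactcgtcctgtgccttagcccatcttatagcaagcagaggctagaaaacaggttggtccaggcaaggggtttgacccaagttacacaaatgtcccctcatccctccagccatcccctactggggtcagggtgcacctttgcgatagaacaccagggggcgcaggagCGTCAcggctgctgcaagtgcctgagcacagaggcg
Prkacb (chr3:146812897-146813196, minus strand): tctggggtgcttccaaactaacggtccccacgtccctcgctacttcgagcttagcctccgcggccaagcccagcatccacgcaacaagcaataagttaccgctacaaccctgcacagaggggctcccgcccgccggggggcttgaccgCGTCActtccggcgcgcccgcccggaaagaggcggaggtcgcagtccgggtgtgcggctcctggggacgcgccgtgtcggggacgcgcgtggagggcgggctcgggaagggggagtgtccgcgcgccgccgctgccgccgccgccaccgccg
Pde8a (chr7:81213015-81213314, plus strand): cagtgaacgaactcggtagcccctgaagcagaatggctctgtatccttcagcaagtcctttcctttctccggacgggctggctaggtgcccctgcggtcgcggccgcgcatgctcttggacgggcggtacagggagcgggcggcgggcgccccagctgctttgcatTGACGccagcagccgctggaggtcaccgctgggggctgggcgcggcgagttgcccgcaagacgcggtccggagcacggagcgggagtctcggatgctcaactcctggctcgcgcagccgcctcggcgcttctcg
Prkar1a (chr11:109650699-109650998, plus strand): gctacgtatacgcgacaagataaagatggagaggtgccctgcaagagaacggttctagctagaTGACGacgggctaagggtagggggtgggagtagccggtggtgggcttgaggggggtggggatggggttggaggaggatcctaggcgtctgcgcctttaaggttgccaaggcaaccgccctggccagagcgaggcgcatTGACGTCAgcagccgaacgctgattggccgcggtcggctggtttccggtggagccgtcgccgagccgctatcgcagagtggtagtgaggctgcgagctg
In the Pde2a window the core lies on the opposite strand with its first printed base at position 15 after the start, and it was in 1 of 5 windows of this gene. For Prkacb it is on the opposite strand from position -102, in 1 of 3 windows, and for Pde8a on the same strand from position -84, in its 1 window. Prkar1a was the 1 gene with the palindrome, here from position -49, also covered by an overlapping window. Its core was in 3 of 6 windows. Each window printed above is one that holds the core. The core was in 14 of the 65 windows, or 21.5%, beside 20.8% of all 32851 windows in the table. By gene, 12 of the 29 had the core in at least 1 window. The palindrome was in 3.08% of the windows of these genes and in 1.79% of all. The match is a description of letters, and the probe sets do not say which start was used.

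All 9 adenylyl cyclases had a difference below 0, from -0.31 to -0.013, with a median of -0.18 beside -0.075 over all named probe sets. Of all named probe sets 62.0% were below 0. At or above the median level, where 7 of the 9 lay, it was 40.8% with a median of 0.062. Below that level it was 83.3% with a median of -0.16. None of the 9 cyclases had an unadjusted p under 0.05. Without KCl replicate 1 the number below 0 was 7 of 9 and the median -0.053, and with each array centred on its median it was 7 of 9. The cyclases that calcium and calmodulin stimulate are Adcy1 and Adcy8. Adcy8 read 6.67, 7.03 and 6.92 with norepinephrine, against 7.005, 7.44 and 7.02 with KCl, a difference of -0.28 ± 0.21 that was -0.35 without KCl replicate 1. KCl replicate 2 was its highest array, and norepinephrine replicate 2 lay above the lower KCl arrays. Adcy1 read 7.79, 7.33 and 7.80 with norepinephrine, against 7.73, 7.82 and 7.89 with KCl, a difference of -0.18 ± 0.20. Only norepinephrine replicate 2 lay apart from the rest there, and without it the difference was -0.020, while without KCl replicate 1 it was -0.22. Adcy3, which is stimulated by calcium under some conditions and is the cyclase of neuronal cilia, differed by -0.014 ± 0.18, or -0.0088 without KCl replicate 1.

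Adcy2, Adcy4 and Adcy7 are cyclases that G protein beta-gamma subunits can stimulate further. Adcy2 read 7.26, 7.13 and 7.31 with norepinephrine, against 7.34, 7.80 and 7.41 with KCl. The groups did not overlap, by a narrow margin, and KCl replicate 2 was highest. The difference was -0.29 ± 0.20, -0.38 without KCl replicate 1 and -0.15 without KCl replicate 2, and the groups overlapped once each array was centred. Adcy7, a cyclase of blood cells and microglia, read 7.18, 6.83 and 7.26 with norepinephrine, against 7.92, 6.99 and 7.30 with KCl. Adcy4 read 7.15, 7.004 and 7.32 with norepinephrine, against 7.92, 7.11 and 7.20 with KCl. In both genes KCl replicate 1 stood above all other arrays: the differences of -0.31 and -0.25 were -0.053 and 0.0017 without it. All 6 microglia markers also read higher with KCl, and 3 of 6 did so without KCl replicate 1. They averaged 6.81, 5.98 and 6.25 across KCl replicates 1, 2 and 3, against 6.01 to 6.16 with norepinephrine. Except for KCl replicate 1, these averages lay below 6.45, the 30th percentile of mean level. The direction was not particular to microglia. All 5 endothelial and all 4 myelinating oligodendrocyte markers shared it, as did 3 of 4 pericyte and 2 of 4 ependymal ones. Below the median level 83.3% of all named probe sets did. The amount of microglia was not tested.

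The calcium-inhibited cyclases Adcy5 and Adcy6 differed by -0.013 ± 0.21 and -0.16 ± 0.19. Adcy9, which forskolin stimulates little, differed by -0.076 ± 0.18. The differences of these 3 without KCl replicate 1 were 0.12, -0.086 and -0.0085. For Adcy5 the KCl arrays held both extremes, 7.09 on replicate 1 and 6.49 on replicate 2, with 6.67 to 6.90 on the norepinephrine arrays between them. Adcy6 spanned 7.46 to 7.77 with norepinephrine and 7.54 to 7.88 with KCl, where only norepinephrine replicate 2 reached the range of the KCl arrays. Adcy9 spanned 7.16 to 7.35 with norepinephrine, within its range of 7.15 to 7.44 with KCl. The 95% intervals of all 9 cyclases lay within 1 log2 unit either side of 0.

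Among the phosphodiesterases selective for cyclic AMP, the rolipram-sensitive Pde4 family showed small differences. Pde4b, the member known for its role in inflammatory signalling, read 8.60, 8.47 and 8.59 with norepinephrine, against 8.55, 8.47 and 8.44 with KCl. These 6 values are among the closest of the list, and the difference of 0.070 had the narrowest 95% interval, -0.32 to 0.46, and was 0.10 without KCl replicate 1. Pde4d, which is widely expressed in the brain, differed by 0.060 ± 0.23 on its representing probe set, with 8.05, 7.82 and 8.38 under norepinephrine and 8.28, 7.68 and 8.11 under KCl, or by 0.19 without KCl replicate 1. Its other probe sets stood at -0.29 ± 0.45 and -0.37 ± 0.22, so the 3 did not share a direction. Pde4a differed by -0.098 and Pde4c by -0.16, and without KCl replicate 1 both were above 0, at 0.045 and 0.099.

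Pde7a and Pde7b, a pair resistant to rolipram, and Pde8b, the relative of Pde8a, complete the class. Pde7a read 8.04, 8.36 and 8.18 with norepinephrine, against 7.50, 8.62 and 7.99 with KCl. Pde7b read 8.64, 8.95 and 8.58 with norepinephrine, against 7.81, 8.94 and 8.77 with KCl. In both, KCl replicate 1 was the lowest array while KCl replicate 2 matched or passed the highest norepinephrine array. Their differences of 0.15 ± 0.28 and 0.21 ± 0.30 were -0.11 and -0.13 without KCl replicate 1. Pde8b differed by 0.065 ± 0.18, with 6.54 to 6.86 under norepinephrine and 6.62 to 6.73 under KCl, and by 0.052 without KCl replicate 1. Whether Pde8a and Pde8b differ from each other in response was not tested. The class median was 0.063, and 0.049 without KCl replicate 1.

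In the dual-specificity class 5 of 8 genes had a difference above 0, and the class median of 0.14 was 0.041 without KCl replicate 1. The Pde1 genes encode enzymes that calcium and calmodulin switch on. Pde1c read 7.52, 7.58 and 7.35 with norepinephrine, against 7.92, 7.78 and 7.68 with KCl. All KCl arrays were above all norepinephrine arrays, by a narrow gap. The difference was -0.31 ± 0.18, and -0.24 without KCl replicate 1. Pde1b read 7.89, 7.97 and 7.72 with norepinephrine, against 8.26, 8.48 and 7.96 with KCl, where KCl replicate 3 fell just below norepinephrine replicate 2. Its difference was -0.38 ± 0.20, the largest among genes above an unadjusted p of 0.05, and -0.36 without KCl replicate 1. Pde1a went the other way at 0.19 ± 0.24, with 6.59, 6.35 and 5.97 under norepinephrine and 6.10, 6.43 and 5.82 under KCl, so its arrays were mixed, and without KCl replicate 1 it was 0.18.

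The cyclic GMP-inhibited enzymes are Pde3a, known from heart and vessels, and Pde3b, known from fat and liver. Pde3b read 8.56, 8.58 and 8.44 with norepinephrine, against 7.37, 8.73 and 8.41 with KCl. KCl replicate 1 alone stood low, and the difference of 0.36 ± 0.33 was -0.043 without it. Pde3a read 8.37, 8.42 and 8.53 with norepinephrine, against 8.08, 8.28 and 8.49 with KCl, a difference of 0.16 ± 0.19 that was 0.054 without KCl replicate 1. Pde10a, a phosphodiesterase known from striatal neurons, was the steadiest gene among the norepinephrine arrays after Pde5a, at 9.19, 9.23 and 9.20, against 8.89, 9.28 and 9.08 with KCl. Its difference was 0.12 ± 0.19, and 0.028 without KCl replicate 1. Pde11a, the enzyme known from ventral hippocampal neurons, had the widest spread of the list among the norepinephrine arrays, with 6.08 to 6.77 under norepinephrine and 5.95 to 6.88 under KCl, and differed by -0.051 ± 0.29, or 0.14 without KCl replicate 1.

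The cyclic GMP-selective genes were Pde5a, whose enzyme sildenafil inhibits, and the high-affinity Pde9a. Pde5a read 5.61, 5.60 and 5.64 with norepinephrine, against 5.92, 5.60 and 5.63 with KCl. Apart from KCl replicate 1 its arrays were nearly equal, and the difference of -0.10 ± 0.18 was 0.00025 without that array. Pde9a read 7.47, 8.00 and 7.61 with norepinephrine, against 7.27, 8.14 and 7.74 with KCl, and differed by -0.028 ± 0.26, or -0.25 without KCl replicate 1.

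**Figure D3:**
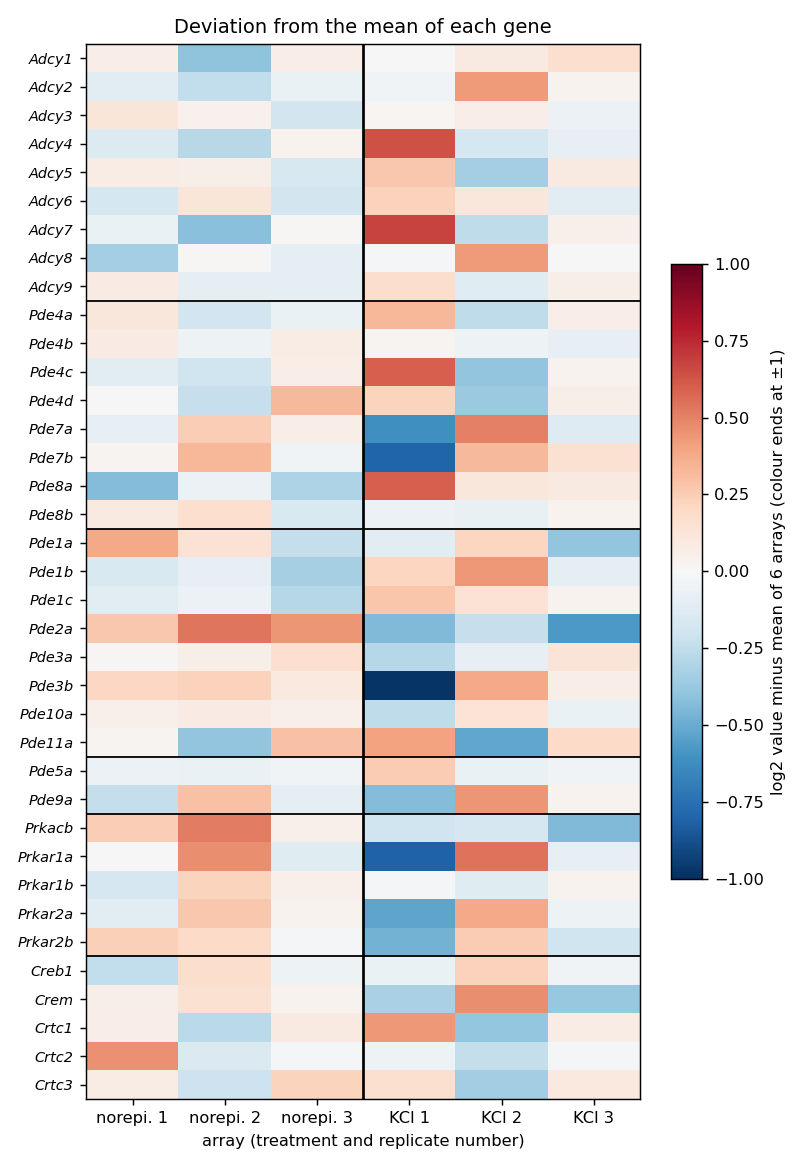
Log2 value of each of the 37 genes on each array minus the mean of that gene over 6 arrays, the norepinephrine arrays (norepi. 1 to 3) left of the KCl arrays; horizontal lines separate the 6 classes in the order cyclases, cyclic AMP-selective, dual-specificity and cyclic GMP-selective phosphodiesterases, kinase subunits and CREB genes. Pde2a changes colour between the treatments, as do Prkacb, Pde8a and Pde1c with some faint arrays, while KCl 1 and KCl 2 have opposite colours in many rows.

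All 5 analysed subunits of protein kinase A had a difference above 0, with a median of 0.23 beside 0.062 over named probe sets at or above the median level. Those probe sets included 4 of the 5 subunits, and 40.8% of them had a difference below 0. Without KCl replicate 1 the number above 0 was 3 of 5 and the median 0.080, with Prkar1a and Prkar2a below 0. The median was 0.48 without KCl replicate 2 and 0.050 without norepinephrine replicate 2. Prkar1a, the type I regulatory subunit found in most cells, read 9.69, 10.15 and 9.56 with norepinephrine, against 8.88, 10.23 and 9.61 with KCl. The KCl arrays held both its lowest and its highest value, and the difference of 0.23 ± 0.34 had the widest interval of the list, -0.54 to 0.99. Prkar2a, a type II subunit that anchoring proteins tether, read 8.56, 8.94 and 8.70 with norepinephrine, against 8.14, 9.05 and 8.62 with KCl. The same order of KCl arrays was seen, and the differences of Prkar1a and Prkar2a were -0.12 and -0.099 without KCl replicate 1.

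The neuronal regulatory subunits are Prkar1b and Prkar2b. Prkar2b read 7.80, 7.75 and 7.54 with norepinephrine, against 7.09, 7.81 and 7.35 with KCl, a difference of 0.28 ± 0.23. It stayed above 0 whichever array was left out, from 0.11 without KCl replicate 1 to 0.48 without KCl replicate 2. Prkar1b differed by 0.071 ± 0.19, with 6.99 to 7.38 under norepinephrine and 7.04 to 7.19 under KCl, and by 0.080 without KCl replicate 1.

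The CREB factors and coactivators had a class median of 0.060, or 0.12 without KCl replicate 1, and differences from -0.085 to 0.20. Creb1, the factor that protein kinase A phosphorylates, read 8.98, 9.40 and 9.17 with norepinephrine, against 9.16, 9.46 and 9.19 with KCl. Within each treatment replicate 2 was its highest array, and the difference was -0.085 ± 0.20, or -0.14 without KCl replicate 1. Crem encodes activators and, from an internal promoter, the cyclic AMP-induced repressor ICER, which its probe set cannot separate here. Crem read 7.90, 7.98 and 7.87 with norepinephrine, against 7.51, 8.30 and 7.46 with KCl. The norepinephrine arrays were tight and the KCl arrays wide, so the difference of 0.16 ± 0.25 was 0.43 (unadjusted p = 0.041 by limma) without KCl replicate 2 and 0.037 without KCl replicate 1.

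The Crtc coactivators move to the nucleus when they are dephosphorylated. Crtc2 had the largest difference of the class, 0.20 ± 0.21, with 8.61, 8.00 and 8.14 under norepinephrine and 8.09, 7.91 and 8.13 under KCl. Norepinephrine replicate 1 alone stood high, and without it the difference was 0.024. Crtc1, the form enriched in the brain, differed by -0.077 ± 0.25 and Crtc3 by 0.060 ± 0.22. Without KCl replicate 1 all 3 coactivators were above 0, at 0.12, 0.23 and 0.15.

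Across the list the KCl arrays supplied most of the extremes. KCl replicate 1 was the highest or lowest of the 6 arrays in 21 of 37 genes and KCl replicate 2 in 22, while each norepinephrine array was so in 8 or 9 and KCl replicate 3 in 6. As shares, KCl replicate 1 was an extreme in 56.8% of these genes beside 76.3% of all named probe sets, and KCl replicate 2 in 59.5% beside 48.9%. In 14 genes, or 37.8%, these KCl arrays were the opposite ends, and this was so in 36.1% of all named probe sets. Pde7a, Pde3b, Pde10a, Pde9a, Prkar1a, Prkar2a and Prkar2b had KCl replicate 1 lowest and KCl replicate 2 highest. Adcy5, Adcy9, Pde4a, Pde4c, Pde11a, Pde5a and Crtc1 had the reverse. Leaving out KCl replicate 1 turned the sign of 12 differences. The 95% interval lay within 1 log2 unit either side of 0 for 34 of 37 genes, and half-widths ran from 0.39 to 0.77. It reached past that limit for Pde2a, Pde3b and Pde8a.

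**Figure D4:**
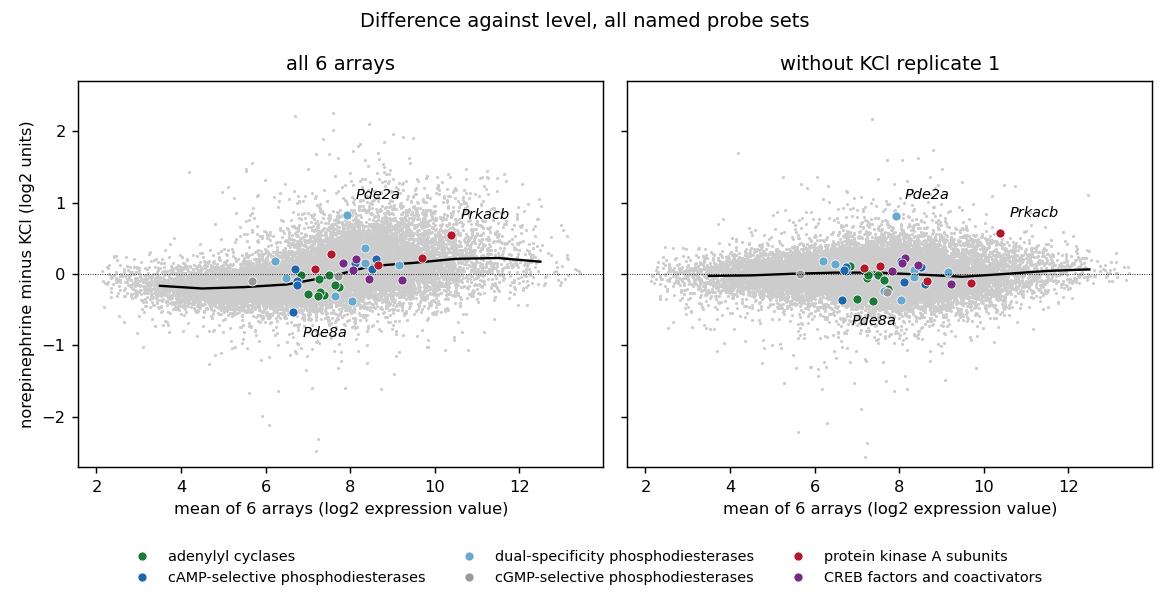
Norepinephrine minus KCl (log2 units) against the mean of 6 arrays for all 21640 named probe sets (grey), with the 37 genes coloured by class and a black line for the median in bins of 1 log2 unit that hold at least 20 probe sets; left, all 6 arrays, right, without KCl replicate 1. On the left the line is below 0 for dim and above 0 for bright probe sets and on the right it is near 0, while Pde2a and Prkacb keep their place.

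Other genes around the pathway were read from 3 lists. Of 9 adrenergic receptors, the proteins that bind norepinephrine, 2 were analysed here. The alpha receptors Adra1b and Adra2c differed by -0.14 ± 0.25 and -0.24 ± 0.22, and by 0.12 and -0.078 without KCl replicate 1. Of 40 further pathway genes, such as anchoring proteins, kinase inhibitors and exchange factors, 37 were analysed. Of these 11 were higher and 26 lower with norepinephrine, with a median of -0.12, or 0.0051 without KCl replicate 1. None passed the adjusted threshold. At an unadjusted p under 0.05, beside 3.43% of all named probe sets, stood 2 of the 37.

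These were Gnal, a stimulatory G protein alpha subunit that couples receptors to adenylyl cyclase in striatum and olfactory neurons, and Pde6d, a carrier of prenylated proteins named after the photoreceptor phosphodiesterase. Gnal read 7.44, 7.19 and 7.32 with norepinephrine, against 5.96, 6.77 and 6.89 with KCl. The groups did not overlap and KCl replicate 1 was lowest, with a difference of 0.78 ± 0.27 that was 0.49 without that array. Pde6d read 9.50, 9.39 and 9.74 with norepinephrine, against 8.32, 8.51 and 9.08 with KCl, without overlap, and differed by 0.91 ± 0.24, or 0.75 without KCl replicate 1. Limma's adjusted p was 0.939 for both. Of the 37 further pathway genes, 3 had groups that did not overlap, beside 9.13% of all named probe sets. These were Gnal, Pde6d and Pkig. Pkig was lower with norepinephrine, at -0.37 ± 0.22, or -0.16 without KCl replicate 1.

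Of 24 known targets of CREB, 8 were higher and 16 lower with norepinephrine, with a median of -0.038 (0.034 without KCl replicate 1), and 0 passed. The differences ran from -0.50 ± 0.23 for Gadd45b to 0.80 for Scg2, with Fos at 0.0087 ± 0.23. Without KCl replicate 1 Gadd45b was at -0.35 and Fos at 0.058. Groups did not overlap for 3 of 24, beside 9.13% of all named probe sets. These were Scg2, the antiproliferative gene Btg2 and Npas4, an activity-dependent neuronal transcription factor. Btg2 read 8.44, 8.50 and 8.57 with norepinephrine, against 8.89, 8.76 and 8.94 with KCl. Its difference was -0.36 ± 0.17, and -0.35 without KCl replicate 1. Npas4 read 6.51, 6.36 and 6.39 with norepinephrine, against 6.91, 6.56 and 6.88 with KCl. KCl replicate 1 was its highest array, and the difference of -0.36 ± 0.19 was -0.29 without it. The 1 target of 24 at an unadjusted p under 0.05, beside 3.43% of all named probe sets, was Scg2. It encodes the secretory granule protein secretogranin II. Scg2 read 7.41, 7.58 and 7.47 with norepinephrine, against 6.52, 6.85 and 6.70 with KCl. The groups lay well apart, and the difference was 0.80 ± 0.18 (0.71 without KCl replicate 1), with a limma adjusted p of 0.939.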

How the data were processed

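RNA from 6 neurosphere samples was measured on 1 array each, and treatment and replicate number came from the titles. The deposited log2 values per probe set were made with Partek and RMA, per the submitters' processing notes. Their versions and settings are not stated in the labels. The table held 34760 probe sets, of which 21640 had 1 gene symbol in the platform table, 1321 several and 11799 none. No scanner files were used, so signal over background was not assessed.

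Differences were fitted with limma 3.58.1 in R 4.3.3 (lmFit, eBayes) on all 21640 named probe sets, without covariate, two-sided, with Benjamini-Hochberg adjustment. Group errors are SD and errors of differences moderated SE. The fit was tested on simulated data. In them it recovered 16% of probe sets changed 2-fold and 88% of those changed 4-fold, with independent genes and no array apart. The genes and lists were chosen with earlier results of these data known, so no list was tested. All 37 genes are named, with values of every array for those without overlap of groups, at an unadjusted p under 0.05 or with a difference of at least 0.4, and for others by class. Other pathway genes are named at an unadjusted p under 0.05, at most 4 per list. Fos, Gadd45b, Btg2, Npas4, Pkig and the marker genes given by name were chosen after their values were seen. Alternatives covered normalization, centring, filters, variance moderation, weights, the replicate number as a block, probe sets and leaving out arrays. Promoter sequences are from RefSeq, GRCm38.p6.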

Additional observations from a re-analysis of the deposited data

How the results depend on the processing

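Of the 37 differences, 12 changed sign without KCl replicate 1, 8 after further quantile normalization, 7 and 5 with default and gene-by-gene array weights, and 0 to 5 in each other alternative. By limma 0 named probe sets passed on 6 arrays, 0 to 4 with each array left out (4 without KCl replicate 1), 5670 with default array weights and 1454 with gene-by-gene weights. The default weights did not converge and gave KCl replicate 3 a weight of 672.7. Of the 37 genes, 3 had an unadjusted p under 0.05, and 7 did with either weighting. With each array left out it was 1 to 5 (1 without norepinephrine replicate 1, 5 without KCl replicate 2). Over all 21640 named probe sets this threshold took 743, and 8676 and 5164 with default and gene-by-gene weights. It took 317 of them without norepinephrine replicate 1 and 3532 without KCl replicate 2. Groups did not overlap in 5 of the 37 genes, and in 3 after centring or further quantile normalization. The count was 6 to 12 with each array left out, which leaves fewer samples to overlap. The share of 9.13% over all named probe sets belongs to the 6 arrays as deposited. Shares for these other settings are not given here, so their counts cannot be set against all named probe sets. The median of cyclic AMP-selective phosphodiesterases, 0.063, was -0.064 and -0.059 with default and gene-by-gene weights, -0.055 after quantile normalization and -0.033 to 0.072 with each array left out. That of adenylyl cyclases was -0.25 to -0.053, of dual-specificity phosphodiesterases 0.041 to 0.19, of cyclic GMP-selective ones -0.14 to 0.012, of kinase subunits 0.050 to 0.48, of CREB genes -0.034 to 0.13 and of all 37 genes -0.00053 to 0.029. Beyond what the left-out arrays show, the cause was not tested. Prkacb stood at 0.38 (unadjusted p = 0.13) after quantile normalization. Pde2a was at an unadjusted p under 0.05 in all 15 alternatives, Pde8a in 11 of 14 and Prkacb in 10 of 15. These counts include the default weights that did not converge. They also include probe set averaging, filters, variance moderation and the block, which left the differences of these 3 genes unchanged.

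Same-numbered arrays deviated together with r = 0.30, 0.63 and 0.085, so the numbers were not taken as pairs, and norepinephrine replicate 3 correlated best with KCl replicate 1. With the replicate block, 0 probe sets and again 3 of the 37 genes stood past the thresholds. The class medians were those of the unblocked fit, such as -0.18 for cyclases and 0.23 for kinase subunits. A block with each number once per treatment cannot change them. The block took the probe sets at an unadjusted p under 0.05 to 1436, against 743.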
